A study of Caenorhabditis elegans with 2 samples.

Results

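The SCC-1 peaks of chromosome II were 769 of the 4534 peaks (17.0%) called in 1 ChIP-seq library of Caenorhabditis elegans, and all peaks that the authors' list places on that chromosome were taken. The animals were fem-2(b245) hermaphrodites (genotype fem-2(b245)III) kept at 20 °C, and the labels call them young adults with a germline, although the growth protocol speaks of gravid adults. They came from batch cultures, so the library pools many animals and all their tissues, and no strain with normal fem-2 was compared. Chromatin fixed with 1% formaldehyde was precipitated with 5 µg of a rabbit antibody to SCC-1. The series also has 1 input DNA library, which was not analysed here. With 1 ChIP library there is no replicate error, so the intervals below are exact 95% intervals that cover counting error alone and treat peaks as independent, which neighbouring peaks are not.

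SCC-1 is the kleisin subunit of the cohesin ring that acts in mitosis, where it closes the ring around sister chromatids until separase cuts it. In the worm germline, other kleisins, REC-8 and the pair COH-3 and COH-4, serve in meiotic chromosomes. The autosomes of C. elegans have gene-dense centres and arms that are richer in repeats and recombine more, and the left end of chromosome II carries its meiotic pairing centre. The fem-2 gene codes for a phosphatase that takes part in sex determination, and b245 is a temperature-sensitive allele. The gene for SCC-1 is itself on chromosome II. Positions are in the WormBase WS220 build, counted from 1. No genome or annotation of that build was used, so no peak is assigned to a gene, exon, intron or UTR.

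Chromosome II stood in the middle of the autosomes in the density of its peaks. It had 50.5 peaks per Mb (95% Poisson interval 47.0 to 54.2), counted up to the end of its last peak at 15233748. The density on II was 0.747 times that of I (0.680 to 0.821) and 0.756 times that of III (0.686 to 0.833). It was 1.37 times that of V (1.24 to 1.52), while the ratio to IV, 1.09 (0.987 to 1.21), had an interval that includes 1. II therefore lay below I and III and above V beyond counting error. Against the other 4 autosomes pooled the ratio was 0.965 (0.891 to 1.04), an average that hides this order. Without V it was 0.851 (0.785 to 0.922), which excludes 1. With the chromosome as the unit, II differed from the mean of the other 4 (54.4 ± 15.3 peaks per Mb, SD, n = 4) by less than their spread, in an exact two-sided permutation test with p = 1, where 0.2 is the smallest p that 1 against 4 allows.

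The peaks of II covered 10.2% of its length, against 10.3% over the other 4 autosomes pooled. This pooled value again hides an order, with 13.1% on I, 13.8% on III, 9.44% on IV and 6.66% on V. Their median width was 1560 bp (order-statistic 95% interval 1473 to 1629) with quartiles of 1160 and 2338 bp. The median widths of I, III and IV, from 1502 to 1562 bp, had intervals that overlapped that of II, and the median of V, 1421 bp (1368 to 1474), met it at the edge. The score, the authors' own value for each peak, ran on II from 50 to 3198. Its median on II was 369.5 (321 to 440.4), against 334 over the other 4 autosomes pooled. By chromosome it was 320.7 on I, 368.7 on III, 380.7 on IV and 283 on V. Many peaks carry the score 3100 exactly, which was treated as a ceiling, so peaks of 3100 or more form 1 top class without an order inside it. On II 67 peaks had that value and 2 were listed above it, at 11873961 to 11881666 with 3198 and at 12002556 to 12008040 with 3173. The top class made up 8.97% of the peaks of II (7.05 to 11.2), which overlaps the shares of I (8.55%), III (7.50%) and V (10.5%) and lies below that of IV (14.9%, 12.5 to 17.5). Per 1000 protein-coding genes, counted per chromosome in RefSeq's table for WBcel235, II had 223 peaks, fewer than I (353), III (348) and IV (246) and more than V (154).

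Along the chromosome, peaks were sparse at the left end and dense from about 4 Mb onwards. Counted by midpoint, the first 4 full windows of 1 Mb held 29, 24, 29 and 26 peaks, in order from the left end. The next 4 held 62, 58, 54 and 61. Every window up to 4 Mb was thus below every window after it. The third set of 4 windows held 75, 54, 46 and 87 peaks, and the last 3 full windows held 43, 48 and 63. The mean was 27 ± 2.45 peaks (SD, n = 4 windows) before 4 Mb and 59.2 ± 12.9 (SD, n = 11 windows) after it. Windows of 1 chromosome are not replicates, and these SDs describe spread along it. The emptiest window was the second, from 1000001 to 2000000, and the fullest ran from 11000001 to 12000000. Peaks covered 3.84% to 5.31% of the bases in each of the first 4 windows and 8.71% to 20.1% in each full window after them.

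**Figure D1:**
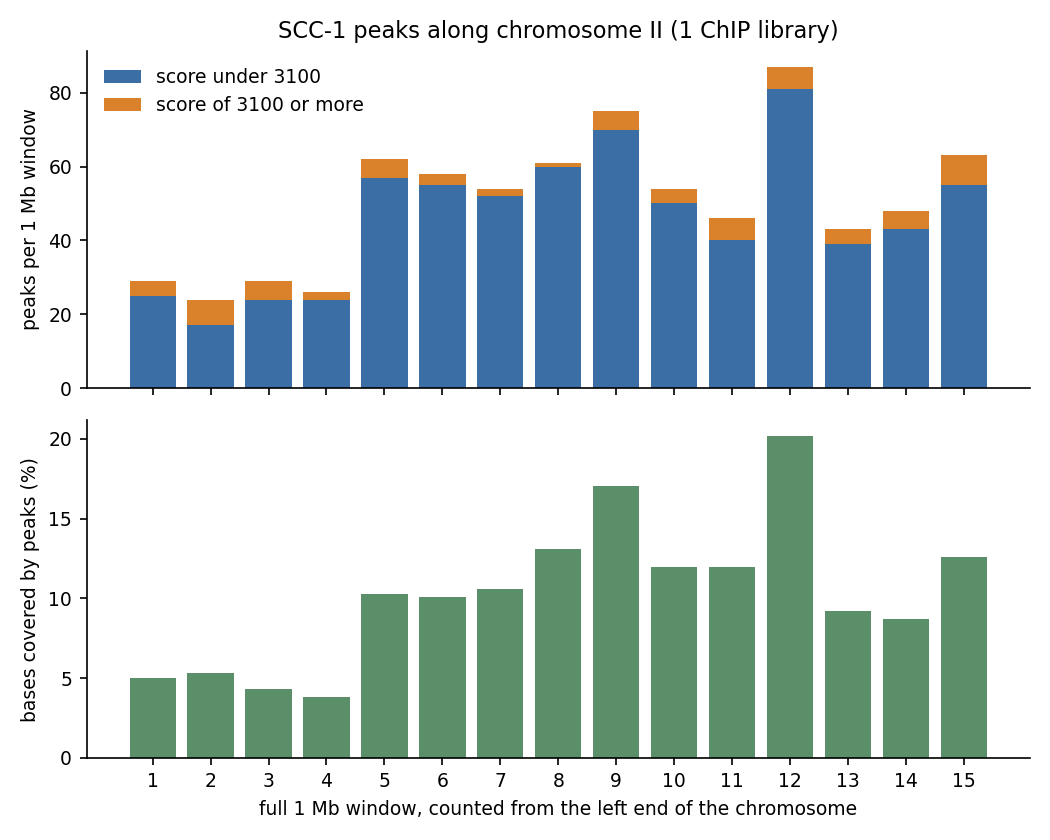
Peaks per full 1 Mb window of chromosome II (upper panel, split by score class) and the percentage of bases covered by peaks (lower panel), in order from the left end; bars are counts or percentages of 1 library. The first 4 windows hold 24 to 29 peaks and the other 11 hold 43 to 87, while the top score class (2 to 7 peaks in the first 4 windows, 1 to 8 after them) shows no such step.

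The density in the first 4 Mb was 0.460 times that of the next 4 Mb (0.362 to 0.580), with 108 against 235 peaks. Against everything after 4 Mb, where 661 peaks lay, the ratio was 0.459 (0.371 to 0.563). The other end of the chromosome was not sparse in this way, since its last 4 Mb held 231 peaks, or 57.8 per Mb. The boundary was known from earlier results of these data, so these ratios describe the step and do not test it. A single change of density placed by maximum likelihood fell on the peak whose midpoint lies at 4222715, with 27.2 peaks per Mb to its left and 59.4 to its right. This is the first peak after a thinly filled stretch of 666 kb, from 3555966 to 4222133, in which 12 peaks in 3 groups covered 16.0 kb. In the 778 kb that follow, up to 5000000, 55 peaks covered 93.1 kb. The likelihood fit places 1 change on any chromosome, so it does not test the step either. On III it placed a rise at 3389994, from 40.1 to 75.5 peaks per Mb. On I, IV and V it placed a fall, at 10.8, 13.5 and 15.6 Mb.

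Over the same 4 Mb, the other 4 autosomes all gave higher ratios than II, though not all with intervals apart from that of II. The ratio of the first to the next 4 Mb was 0.568 on III (0.471 to 0.684) and 0.654 on V (0.507 to 0.841), and both intervals overlap that of II. Such an overlap does not show that the ratios are alike, and their difference was not tested. It was 0.963 on I (0.816 to 1.14) and 0.949 on IV (0.773 to 1.17), where no step at this place was detectable and the intervals lie apart from that of II. A boundary with all full windows on one side below all those on the other, with at least 2 windows on each side, was also found elsewhere. On III the first 3 windows held 29 to 47 peaks and the other 10 held 58 to 90. On I and IV the sparse end was the right one, with 38 to 57 peaks in the last 4 full windows of I and 29 to 30 in the last 3 of IV. On V the first 4 windows held 23 to 32 peaks, close to those of II, but its right end was as sparse, and no boundary separated its windows. A sparse end is therefore not particular to II.

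Between neighbouring full windows, the 3 largest changes among 75 such pairs on the 5 autosomes were all on II. They were the fall from 87 to 43 peaks at 12 Mb, the rise from 46 to 87 at 11 Mb and the rise from 26 to 62 at 4 Mb. The largest change on another autosome was from 66 to 38 peaks, on I at 11 Mb. The changes at 11 and 12 Mb bound 1 crowded window, whereas the change at 4 Mb separates long stretches of unlike density.

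**Figure D2:**
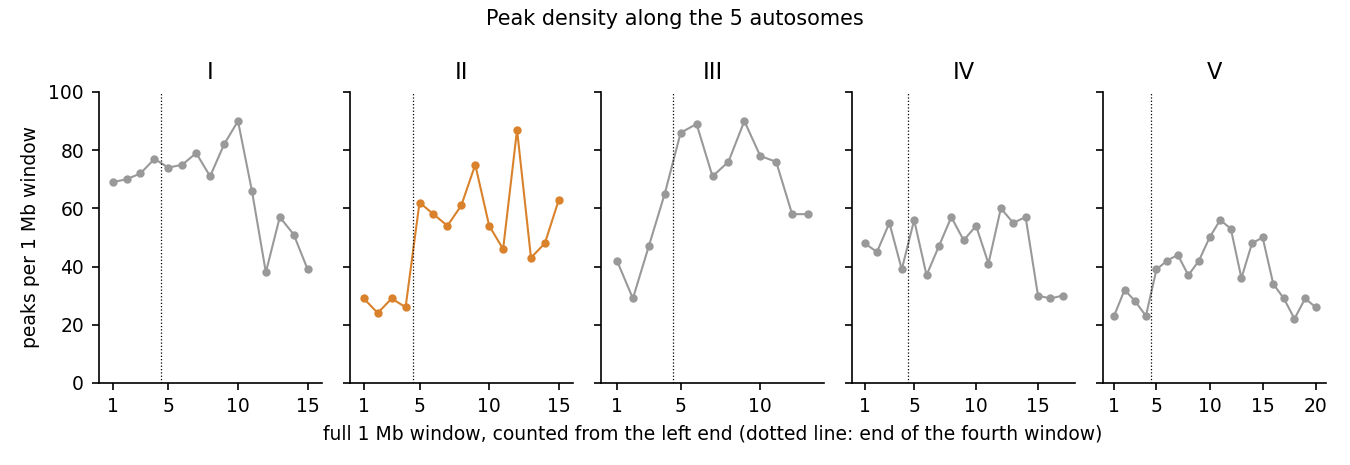
Peaks per full 1 Mb window along each of the 5 autosomes, in order from the left end, with chromosome II in orange and a dotted line after the fourth window. II starts with 4 windows of 24 to 29 peaks and stays at 43 or more from the fifth on; III also starts low, I and IV end low, and V is low at both ends.

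The step at 4 Mb was made up of peaks below the top score class. Peaks scoring from 1000 up to 3100 were the scarcest in the first 4 Mb relative to the rest, at 2.25 per Mb (9 peaks, 1.03 to 4.27) against 12.3 per Mb after 4 Mb (138 peaks, 10.3 to 14.5). The ratio in this class was 0.183 (0.0820 to 0.358). Peaks of the top class showed no detectable difference in density between the parts, at 4.5 per Mb (18 peaks, 2.67 to 7.11) and 4.54 per Mb (51 peaks, 3.38 to 5.97), a ratio of 0.991 (0.545 to 1.73). The intervals of these 2 ratios do not overlap. In the next 4 Mb alone the top class was sparser still, with 11 peaks or 2.75 per Mb (1.37 to 4.92), which gives a ratio of 1.64 (0.732 to 3.83) whose interval includes 1. For the 4 classes under 1000, the ratio of the first to the next 4 Mb was 0.511 from 50 up to 100, 0.490 from 100 up to 250, 0.317 from 250 up to 500 and 0.476 from 500 up to 1000, and each interval lay below 1. The classes were taken from earlier work on these data, and the ceiling merges peaks of unlike strength, so a density within the top class cannot be resolved further.

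Top-class peaks made up 16.7% of the peaks in the first 4 Mb (18 of 108, 10.2 to 25.1) and 7.72% of those after it (51 of 661, 5.80 to 10.0). The first 4 Mb, which are 26.3% of the length, held 14.04% of all peaks and 26.1% of the top-class peaks. The median score was 356 (214 to 522) before the boundary and 369.5 (325 to 450.6) after it, with overlapping intervals. On the other autosomes the top-class share in the first 4 Mb was 8.68% on I, 7.10% on III, 12.3% on IV and 14.2% on V. In the last 4 Mb, where I, IV and V were sparse, it was 8.42% on I, 28.2% on IV (20.7 to 36.8) and 5.56% on V. The share at the sparse right end of IV was above that at the left end of II, and those of I and V were below it. Each of these intervals overlaps that of the left end of II, and the differences were not tested. The ratio of top-class density in the first 4 Mb to that after it was 0.957 on V (0.507 to 1.70) and 0.567 on III (0.285 to 1.05). Both intervals overlap that of II, and the differences were not tested. For scores from 1000 up to 3100 the ratio was 0.852 on V (0.483 to 1.43), apart from the interval of II, and 0.532 on III (0.351 to 0.784), which overlaps it.

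**Figure D3:**
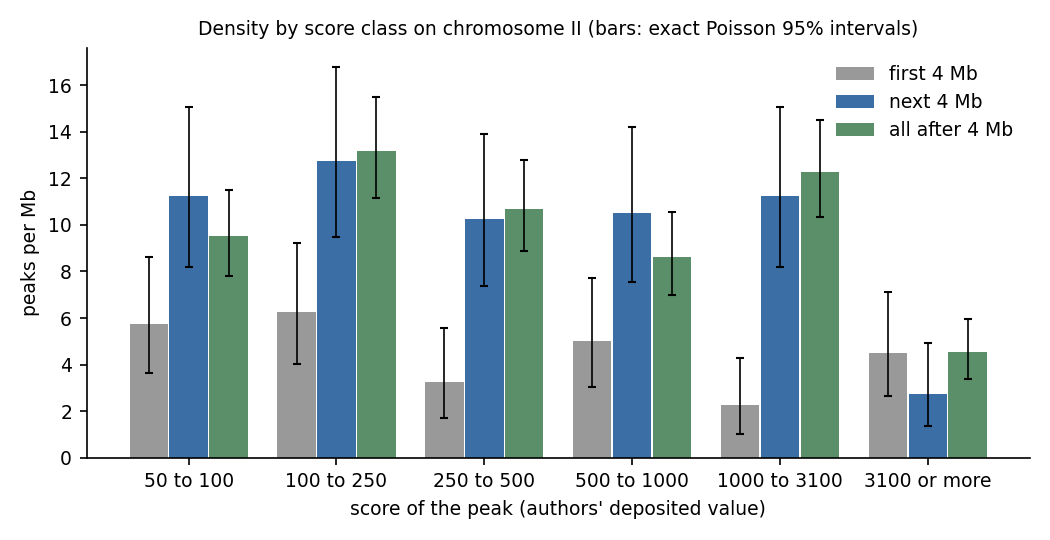
Peaks per Mb of chromosome II in 6 classes of the authors' score, for the first 4 Mb, the next 4 Mb and everything after 4 Mb; error bars are exact 95% Poisson intervals that cover counting error. In the class from 1000 up to 3100 the first 4 Mb held 2.25 peaks per Mb against 12.3 after it, and in the class of 3100 or more 4.5 against 4.54.

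The top class had its own thin stretch, in a part where peaks as a whole were dense. From 5 to 8 Mb, a part chosen after its values were seen, 6 of 173 peaks were in the top class. Over the whole chromosome 69 of 769 were (8.97%, 7.05 to 11.2). No interval was computed for the part from 5 to 8 Mb, and the difference was not tested. The longest distance between neighbouring top-class peaks, 989 kb from 5380397 to 6369484, lies in this part. The median distance between top-class peaks on II was 158 kb. The median width of top-class peaks was higher after 4 Mb (3795 bp, n = 51) than before it (2459 bp, n = 18). These medians carry no interval, and their difference was not tested. The narrowest top-class peak on the chromosome was 1225 bp wide.

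Peaks in the sparse left end stood further apart from each other. The measures below depend on the density of peaks, so they are not a trait separate from it. The empty distance between neighbouring peaks had a median of 18770 bp before 4 Mb (13262 to 26893) and 5474 bp after it (4809 to 6703). Of the distances, 24.1% were under 5000 bp before 4 Mb (26 of 108, 16.4 to 33.3) and 47.9% after it (316 of 660, 44.0 to 51.8). When peaks less than 5000 bp apart were read as 1 run, 58.3% of the peaks before 4 Mb stood alone (48.5 to 67.7), against 26.5% after it (23.1 to 30.0). In the first 4 Mb of V, 50.9% stood alone (41.0 to 60.8) and the median distance was 12824.5 bp (6293 to 20318). Both intervals overlap those of II. In the first 4 Mb of III, 37.2% stood alone (30.1 to 44.6), below the interval of II. Of the peaks of II before 4 Mb 13.9% were in runs of 3 or more, against 46.0% after it. In windows of 100 kb on II, 7 of the 40 windows before 4 Mb were empty and none held more than 7 peaks. After 4 Mb, 3 of 112 were empty and 32 held at least 8 peaks.

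The dense part of II contained short crowded stretches. The 100 kb window with most peaks ran from 14300001 to 14400000 with 16, followed by 11500001 to 11600000 with 15, and by 4900001 to 5000000 and 7000001 to 7100000 with 13 each. The run with most peaks held 10, from 11572604 to 11600358, and peaks covered 61.9% of its 27755 bp, although the highest score in it was 1454 and the lowest 51.4. The run of the longest span, 39158 bp from 11094052 to 11133209, held 9 peaks, 1 of them in the top class, and the third by number, from 10860594 to 10885127, held 7 with scores up to 1375. A run of 4 peaks from 8456214 to 8484056 was built differently, since 2 of its peaks were over 8000 bp wide and peaks covered 74.5% of its 27843 bp. Over the chromosome, 427 runs were counted, of which 238 were single peaks and 83 held at least 3. Single peaks were 30.9% of all peaks on II (27.7 to 34.4), overlapping I (30.6%) and III (28.7%), as well as V (36.8%, 33.4 to 40.4), and below IV (38.7%, 35.4 to 42.2).

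**Figure D4:**
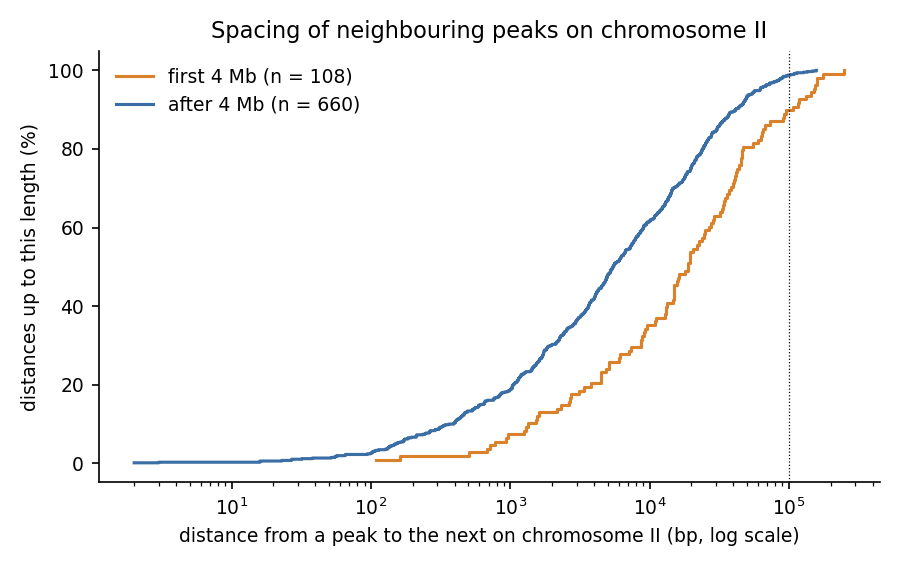
Cumulative percentage of the distances from a peak to the next on chromosome II, for distances centred in the first 4 Mb (n = 108) and after it (n = 660), on a log axis; the dotted line marks 100 kb. The curve of the first 4 Mb lies to the right, with a median of 18770 bp against 5474 bp.

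Wide peaks, of at least 5000 bp, were fewest among the peaks of the left 7 Mb. II held 32 of them, 4.16% of its peaks (2.86 to 5.82), close to 3.96% on the other 4 autosomes (3.34 to 4.66), and they made up 14.8% of the bases that its peaks covered. Before 7 Mb 3 of 282 peaks were wide (1.06%, 0.220 to 3.08), from 7 to 13 Mb 23 of 366 (6.28%, 4.02 to 9.28) and after 13 Mb 6 of 121 (4.96%, 1.84 to 10.5). The interval of the last part overlaps both others, and these parts were chosen after their values were seen. After the wide peak that ends at 1154076, no wide peak followed for 5627 kb, up to 6780992, although 230 peaks lay in between. In the dense 4 Mb after the step, 5 of 235 peaks were wide (2.13%, 0.694 to 4.90), and in the last 4 Mb of the chromosome 15 of 231 were (6.49%, 3.68 to 10.5). In the first 4 Mb 2 of 108 peaks were wide (1.85%, 0.225 to 6.53), an interval that overlaps those of the later parts.

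The 10 widest peaks of II spanned from 7706 to 16404 bp, and their scores ran from 567 to the top class. The widest peak of the whole list lay from 11964487 to 11980890, with 16404 bp and a score of 2311, under the ceiling. The second of the list was also on II, from 14597954 to 14612413 with 14460 bp, and was in the top class. The third of II, from 10541393 to 10553354 with 11962 bp, scored 2832 and was the fifth in the list. Great width thus did not always come with the top score. Those from 8456214 to 8465543 (9330 bp), 1145329 to 1154076 (8748 bp), 8475496 to 8484056 (8561 bp), 12732194 to 12739988 (7795 bp) and 11873961 to 11881666 (7706 bp) were in the top class. Those from 7892095 to 7900721 (8627 bp) and 9216294 to 9224014 (7721 bp) scored 567 and 779. Of these 10, the peak at 1145329 was the only one in the first 4 Mb.

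Some wide peaks lay close to others. Around the widest peak, 6 of them lay from 11725958 to 12057530, and the widest was 21.7 kb from its right and 82.8 kb from its left wide neighbour. The peaks at 10541393, 10558100 and 10574170 were 4.75 and 10.1 kb apart and measured 11962, 6000 and 6256 bp. The peaks at 12725262 and 12732194 were separated by 0.826 kb. On II 16 of the 32 wide peaks were in the top class (50%, 31.9 to 68.1), against 26 of 37 on I, 19 of 44 on III, 23 of 33 on IV and 17 of 25 on V, and all these shares have intervals that overlap that of II. Across the 769 peaks, width and score were related (Spearman's rho = 0.65, as a description of peaks that share 1 library), and 6 wide peaks scored under 1000.

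**Figure D5:**
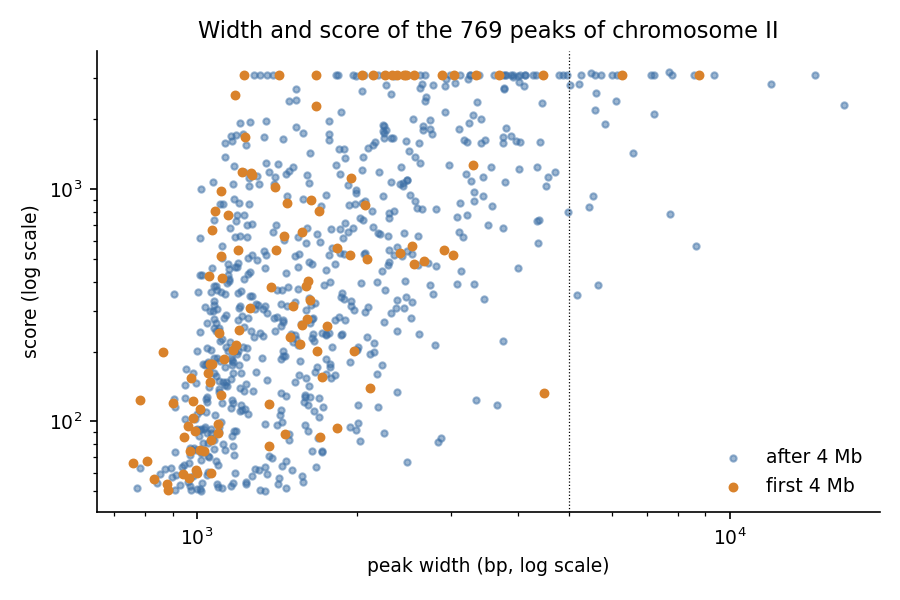
Score against width for the 769 peaks of chromosome II, both on log axes, with peaks of the first 4 Mb in orange and a dotted line at 5000 bp. The ceiling at 3100 is the flat upper edge; 2 of the 32 wide peaks are from the first 4 Mb, whereas 18 of the 69 top-class peaks are.

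Long stretches without a peak were gathered at the left end. II had 19 of at least 100 kb, which together took up 2671 kb or 17.5% of its length. I had 9 (8.70% of its length), III 5 (4.63%), IV 22 (15.9%) and V 36 (29.3%). By midpoint, 11 of the 19 lay in the first 4 Mb, 4 in the next 4 Mb and 4 further on. These stretches took up 40.6% of the first 4 Mb and 9.31% of the rest. On V the first 4 Mb were emptier by this measure (46.2%), and on III they were not (9.90%). Outside these stretches the first 4 Mb of II held 45.5 peaks per Mb and the rest 64.9. On V the same 2 values were 49.2 and 52.6. The stretches were picked for holding no peak, so leaving them out raises density most where they take up most length. A smaller step on II therefore follows from that choice. The step was still seen on II, with a ratio to the next 4 Mb of 0.666 (0.526 to 0.840).

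The longest stretch on II, 249.7 kb from 3555966 to 3805688, opened the thinly filled 666 kb before the dense part. Further stretches of the left end ran from 858319 to 1033600 (175 kb), 3088044 to 3247734 (159.7 kb), 1501650 to 1660902 (159 kb), 702149 to 855765 (154 kb) and 1154077 to 1306253 (152 kb). Those from 2060049 to 2203798 (144 kb), 1663489 to 1796405 (133 kb), 3814056 to 3931856 (118 kb), 2600598 to 2716407 (116 kb) and 3935620 to 4042310 (107 kb) complete the 11. One more, from 4094976 to 4222133 (127 kb), lay between the 4 Mb boundary and the dense part. Several of them were neighbours, parted by 1 or a few peaks. A single top-class peak of 2553 bp parted the stretches that end at 855765 and start at 858319. In the dense part, stretches ran from 5188670 to 5335889 (147 kb), 5716455 to 5819437 (103 kb) and 5911325 to 6047245 (136 kb), and then from 10663402 to 10777784 (114 kb). The last ran from 12301386 to 12459079 (158 kb), 12495190 to 12603619 (108 kb) and 14641906 to 14752190 (110.3 kb). Between 6047245 and 10663402 there was none of this length. The list does not show which bases reads could cover, so an empty stretch says only that no peak was called there.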

How the data were processed

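ChIP DNA and input DNA of fem-2(b245) adults were sequenced, 1 library each, and the peak list of the ChIP library was the 1 processed file used. Peaks were called with MACS on WormBase WS220, per the file headers and the source column. The submitters' processing notes name BWA and ce10 (WS220 at UCSC). Tool versions, the calling threshold and the role of the input library were not given in the sources used here. The score of each peak is the authors' deposited value, and its scale is not stated. Read depth is unknown, so single peaks carry no interval.

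All rows of chromosome II were taken. Peaks were placed by midpoint, in windows of 1 Mb or 100 kb, and each chromosome was measured up to the end of its last peak. Densities carry exact Poisson intervals, shares and ratios of densities exact Clopper-Pearson intervals, and medians exact order-statistic intervals, all at 95%. A density ratio was called different where its interval excluded 1. Where the intervals of 2 values overlap, their difference was not tested, and the overlap does not show that they are alike. The regions named are the 10 widest peaks, the peaks listed above 3100 (the next in score are tied, so none of them is named for its score), the first and last peak, stretches of at least 100 kb without a peak, the fullest 100 kb windows with ties, and the runs with most peaks or the longest span. The members, the 4 Mb boundary, the score classes and these rules were chosen with earlier results of these data known. The parts cut at 5, 7, 8 and 13 Mb and the groups of wide peaks were chosen after their values were seen. RefSeq's WBcel235 gene table was used for counts of genes per chromosome and the chromosome of scc-1. Procedures were tested on simulated data. Calculations used scipy 1.17.1, pandas 2.3.3 and numpy 2.4.6 under Python 3.11.15, and plots matplotlib 3.10.9.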

Additional observations from a re-analysis of the deposited data

How the results depend on the processing

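With 1 ChIP library no replicate could be left out, and read depth could not be varied. No paired analysis was possible because the 2 samples are 1 ChIP and 1 input library and 1 peak list was used. Of 31 alternative settings, 18 stayed within the interval of the value reported, or within 1.5 times a count. The density of II over the other autosomes (0.965) became 1.05 without I (0.970 to 1.14) and 0.851 without V (0.785 to 0.922). The interval without V excludes 1, so there II was called lower. I and V lie at the ends of the range. The step at 4 Mb (0.460) became 0.672 (0.502 to 0.897) after merging of peaks less than 5000 bp apart, which acts mostly in dense parts. The step on the other autosomes was not computed with merged peaks. Whether the intervals of I and IV would then still lie apart from that of II is therefore not known. Settings added after seeing the data gave 0.666 with the empty stretches of at least 100 kb left out, 0.402 for scores under 3100 and, in the other direction, 1.64 (0.732 to 3.83) for scores of 3100 or more; the cause was not tested. The other settings of the step gave values below 1. Other thresholds moved the shares and counts by construction. Wide peaks were 15.2% from 3000 bp, 0.910% from 8000 bp and 7.86% in the higher-scoring 50% of peaks. Long stretches numbered 65 from 50 kb, 7 from 150 kb and 30 in the higher-scoring 50%. Scores of at least 1000 made up 28.1% of the peaks, and the median width in the higher-scoring 50% was 2182 bp.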

Other observations

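Peaks bordering the long empty stretches had a lower median width than the rest of chromosome II, with overlapping intervals. The 37 peaks beside a stretch of at least 100 kb had a median width of 1178 bp (1014 to 1633), against 1574 bp (1488 to 1642) for the other 732, and the intervals overlap. Their median score was 276 (131 to 409) against 385 (326 to 459), which also overlap. Of the 37, 4 were in the top class (10.8%, 3.03 to 25.4), against 8.88% of the others. Of the 19 stretches on II, 11 lay in the first 4 Mb, where all peaks had a median width of 1388 bp (1195 to 1577), against 1593 bp (1502 to 1662) after it. The median width beside such stretches was also lower on I (1192 against 1509 bp), III (1102 against 1571 bp) and V (1267 against 1439 bp) and was not on IV (1556 against 1553 bp). On I the intervals lay apart (1126 to 1443 against 1456 to 1588), and on III and V they overlapped. On II the wide top-class peak from 1145329 to 1154076 directly borders an empty stretch of 152 kb.

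The ends of chromosome II differed. The first peak, from 2 to 884, had a score of 50.8, near the lowest of the list, and the next began at 42881. A peak at the very start is not particular to II, since the first peak of I, III, IV, V and X also began at base 1 or 2. The last peak, from 15231883 to 15233748, had a score of 2137 and followed another, from 15229557 to 15231637, after less than 1 kb. The distance from this last peak to the end of the chromosome was not analysed here.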
